A study of Mus musculus with 12 samples.

Results

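The cluster of miR-322, miR-503, miR-351, miR-542 and miR-450 is a group of X-linked microRNAs (miRNAs) that lie close together in the mouse genome, and its levels were examined in the small RNA-Seq of colon and blood from mice with and without colitis induced by dextran sulfate sodium (DSS). Its members here were 9 mature miRNAs chosen by name, and all 9 were among the 1978 entries of the count table, of which 1405 had a count in at least 1 library. The libraries came from colon and whole blood of the same 6 mice, male C57BL/6 animals of 8 weeks with no transgene. Mice 1, 7 and 9 drank water with 1.5% (wt/vol) DSS, a polysaccharide toxic to the gut lining, over 7 days, and the controls, mice 2, 4 and 8, drank plain water. All were sacrificed on day 8, which gave 3 libraries for each group and tissue. By the study's methods, these 6 mice were picked from a larger set by disease activity index, a score of weight loss, stool and bleeding. Blood and colon RNA were isolated with different kits, so the kit and the tissue cannot be told apart. The sample labels carry another grouping, with colitis in mice 1, 2 and 4 and none in mice 7, 8 and 9, and in all 12 libraries the tissue given as source is not the one given in the tissue field. Tissues were therefore taken from the library names as they are used in the study's figures and in the normalized tables. The grouping used here is that of the study's own figures, and signs that turn under the labels' grouping are given beside the results.

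The tissue assignment was checked against miRNAs of known cell types. A list of 9 miRNAs of the colon epithelium summed to between 42091 and 160138 CPM in the colon libraries and to between 1178 and 1762 CPM in the blood libraries. The red cell miRNAs miR-486a-5p and miR-486b-5p, which have the same mature sequence, took 74.7% to 83.0% of the count of each blood library and 0.251% to 0.442% of each colon library. Their counts were close but not identical, with the smaller at 95.9% to 99.97% of the larger, so most reads of this sequence may have been entered for both. Levels are in CPM, the count of a miRNA per 1e6 of the summed counts of its library, scaled with TMM factors. Total counts ran from 15060553 to 20106226 in colon and from 21127134 to 32944792 in blood. With only the larger of the miR-486 counts kept, the blood totals were 12906680 to 19939945, so that levels per 1e6 counts in blood would be 1.58 to 1.71 times as high, and the colon totals 15039896 to 20062999. A count of 0 in a library allows a level of at most 0.0911 to 0.199 CPM at these depths. This bound is taken as 3 counts of the total before TMM scaling, and it covers counting error only.

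A miRNA is cut from a hairpin that has a 5p and a 3p arm, and either arm can be kept as the mature strand that guides the silencing of messenger RNAs. Bases 2 to 8 of the mature strand, the seed, largely decide which messages are bound, so miRNAs with one seed form a family of shared targets. miR-322-5p, the mouse counterpart of human miR-424-5p, and miR-503-5p are known for holding back cell cycle genes such as cyclins and for the exit from the cell cycle in differentiating muscle. miR-351-5p carries the seed of the miR-125 family, the mammalian relatives of lin-4, and miR-542-3p is known as a regulator of survivin, an inhibitor of apoptosis.

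The mature sequences of the 9 members are shown because the families and the arms compared are read from them, with the seed in capitals and with the names of the count table, which are written below without mmu (for mouse). They are followed by the 3p arm of miR-503, which is not among the 9 members but is needed to compare the arms of that hairpin.
mmu-mir-322-5p: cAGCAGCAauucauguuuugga
mmu-mir-322-3p: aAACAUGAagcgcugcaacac
mmu-mir-503-5p: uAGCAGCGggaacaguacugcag
mmu-mir-351-5p: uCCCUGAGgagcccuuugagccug
mmu-mir-351-3p: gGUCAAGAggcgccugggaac
mmu-mir-542-3p: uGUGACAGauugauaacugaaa
mmu-mir-542-5p: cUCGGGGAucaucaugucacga
mmu-mir-450a-5p: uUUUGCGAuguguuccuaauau
mmu-mir-450b-5p: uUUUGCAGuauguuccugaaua
mmu-mir-503-3p: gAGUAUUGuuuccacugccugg

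The 9 members had 9 different seeds, so the cluster is not a seed family although its genes are neighbours. The seeds of miR-322-5p and miR-503-5p, however, differ only in their last base. miR-322-5p shared its seed with 7 other entries of the table, namely miR-15a-5p, miR-15b-5p, miR-16-5p, miR-195a-5p, miR-195b, miR-497a-5p and miR-6353. miR-351-5p shared its seed with 2 others, miR-125a-5p and miR-125b-5p, and miR-542-5p with 1, miR-6966-5p. The abundant relatives below show how the sequences part after the seed.
miR-16-5p: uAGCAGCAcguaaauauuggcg
miR-195a-5p: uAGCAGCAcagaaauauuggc
miR-125b-5p: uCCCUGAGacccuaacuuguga
Over 18 or more aligned bases, each member differed from every other entry at 6 or more positions. All 13 arms of the locus in the table matched RefSeq with an identical sequence.

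The cluster spans 6353 bp on the minus strand of the X chromosome (GRCm38, chrX:53047997-53054349). It holds 7 hairpins in the order Mir322, Mir503, Mir351, Mir542, Mir450-2, Mir450-1 and Mir450b, each annotated as a gene of its own in GENCODE, and no other annotated gene overlaps them on either strand. The gaps between neighbouring hairpins are 200, 630, 3767, 1035, 54 and 75 bp, so Mir322, Mir503 and Mir351 form one end and the Mir450 hairpins the other, as the map of the hairpins shows. The nearest protein-coding gene is Plac1, 15646 bp from Mir322. miR-450a-5p can be cut from either Mir450-2 or Mir450-1, and its reads cannot be assigned to one of them.

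**Figure D1:**
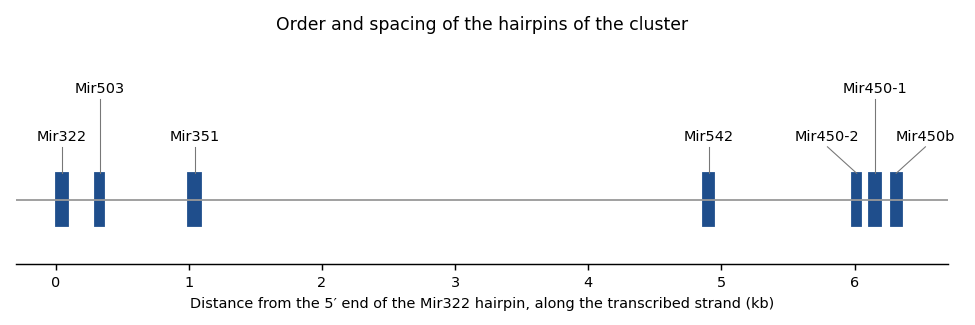
Map of the 7 hairpins, drawn to scale along the transcribed strand, with distance from the 5′ end of Mir322 in kb on the horizontal axis. Boxes are hairpins, and the gap of 3767 bp between Mir351 and Mir542 separates the cluster into ends of 3 and 4 hairpins.

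The hairpins of the first pair of genes are shown with both arms in capitals, read from RefSeq on GRCm38.p6 (Mir322, chrX:53054255-53054349; Mir503, chrX:53053984-53054054).
Mir322: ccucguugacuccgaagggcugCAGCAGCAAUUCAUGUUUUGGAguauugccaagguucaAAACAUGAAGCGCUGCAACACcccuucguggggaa
Mir503: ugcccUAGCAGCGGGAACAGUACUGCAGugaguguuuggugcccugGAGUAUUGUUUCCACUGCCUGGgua
In colon the 3p arm had the higher count for both hairpins, and in blood it did so for Mir322 and not for Mir503, as described below. Both were deposited as counts of whole mature miRNAs of 21 to 24 bases, so levels were compared between miRNAs per molecule counted, without a length correction.

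The cluster was a small part of either tissue's miRNAs. The 9 members together took 0.0163% to 0.0210% of the counts in colon of DSS mice and 0.0115% to 0.0146% in colon of controls. In blood the ranges were 0.0107% to 0.0150% in DSS mice and 0.0101% to 0.0139% in controls. The colon ranges did not overlap and the blood ranges did. On totals with only the larger miR-486 count, a calculation added after the data were seen, the blood shares were 0.0177% to 0.0239% in DSS mice and 0.0173% to 0.0220% in controls. The colon shares on such totals were 0.0163% to 0.0210% in DSS mice, which overlapped both blood ranges, and 0.0115% to 0.0146% in controls, which lay below them.

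In colon, miR-351-5p was the most abundant member, at 70.7 to 90.3 CPM over the 6 libraries, and it ranked 152 of 1300 miRNAs with a count. It was followed by miR-322-3p at 26.8 to 48.7 CPM and miR-450a-5p at 18.4 to 27.5 CPM, whose ranges over mice touched. miR-503-5p (1.39 to 5.30 CPM), miR-322-5p (2.63 to 4.74 CPM) and miR-542-3p (1.33 to 4.30 CPM) overlapped and could not be ordered. miR-351-3p (1.07 to 1.80 CPM) and miR-450b-5p (0.664 to 2.36 CPM) also overlapped each other. miR-542-5p had 0 to 3 counts in a colon library, and 1 of the 6 libraries had none.

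The order in blood was another one. miR-351-5p again led, at 84.6 to 106 CPM and rank 82 of 1121, and miR-503-5p came second at 10.2 to 29.9 CPM. miR-322-3p followed at 3.95 to 10.4 CPM, a range that overlapped that of miR-503-5p only through DSS mice. miR-450a-5p (0.748 to 2.97 CPM), miR-322-5p (0.451 to 1.46 CPM) and miR-351-3p (0.494 to 1.11 CPM) overlapped, and miR-542-3p, miR-450b-5p and miR-542-5p lay at or below 0.680 CPM in every blood library. miR-450b-5p had no count in blood of 1 mouse and miR-542-5p had none in blood of 2.

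**Figure D2:**
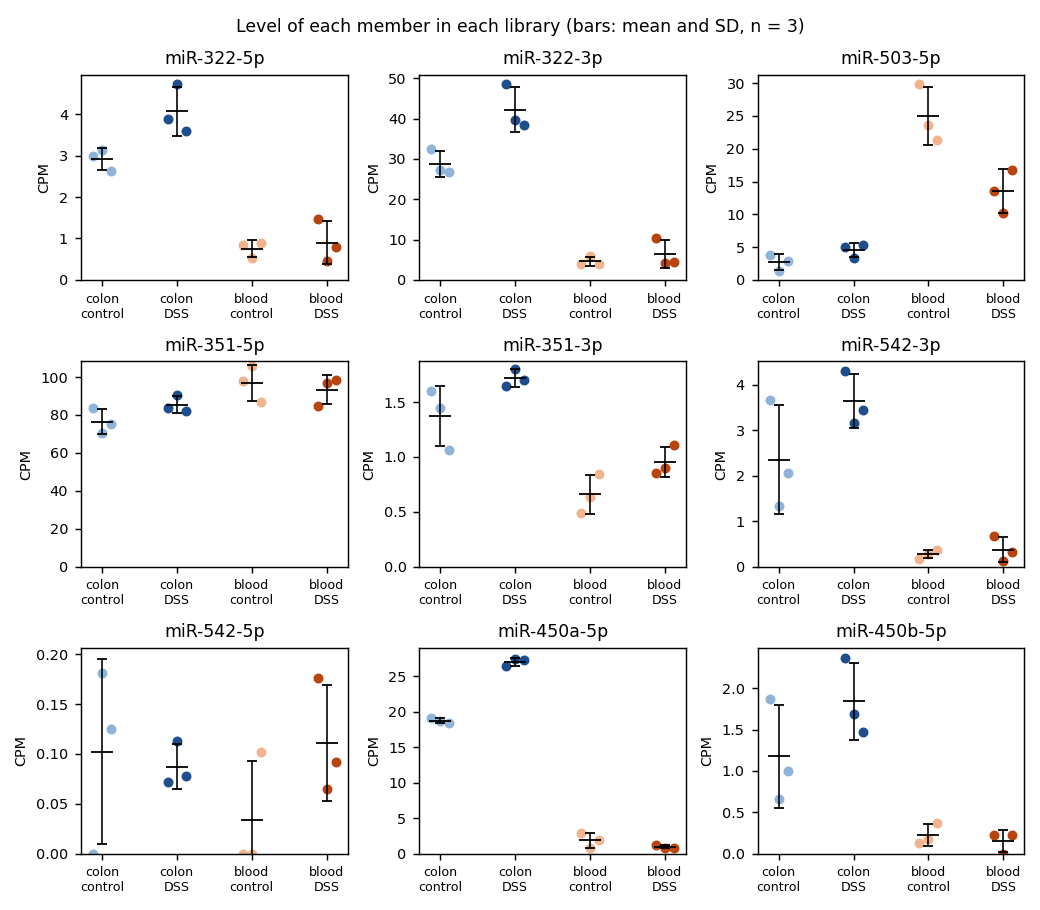
Level of the 9 members in each library, in CPM on a linear axis from 0, with points for mice and bars for the mean and SD of 3 mice. The colon and blood libraries were scaled separately; in colon miR-450a-5p is at 26.4 to 27.5 CPM in DSS mice and at 18.4 to 19.1 CPM in controls, and in blood miR-503-5p is at 10.2 to 16.8 CPM in DSS mice and at 21.3 to 29.9 CPM in controls.

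The first comparison asked which miRNAs differ in the inflamed colon. Of the 9 members, 8 passed the filter on low counts (miR-542-5p did not), and each of the 8 had a higher mean in DSS than in control mice, although none was called significantly differentially expressed (SDE). A miRNA was SDE when edgeR's quasi-likelihood test gave it an adjusted p up to 0.05 together with more than a 1.5-fold change, and 10.1% of the miRNAs tested in colon (55) were SDE. That background varied with the analysis in both directions. It was 76 SDE miRNAs without the filter, 74 by DESeq2, 51 with at least 10 counts in every library and 47 under total counts. It was 16 under RLE factors, 8 under upper-quartile factors, 0 when all 12 libraries were fitted together and 0 without mouse 2, 4, 7 or 8. A log2 fold change above 0 was found for 52.4% of the tested miRNAs. The median log2 fold change was 0.54 over the 8 members, from 0.16 to 0.77, and 0.04 over all miRNAs tested. In bulk tissue, a change in the number of cells of a type cannot be told apart from a change of the RNA in each cell.

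miR-450a-5p separated the groups most clearly. It was measured at 26.4, 27.5 and 27.3 CPM in colon of DSS mice 1, 7 and 9 and at 19.1, 18.7 and 18.4 CPM in control mice 2, 4 and 8. The DSS mice were all higher, with means of 27.1 ± 0.552 against 18.8 ± 0.353 CPM (SD, n = 3) on the scale of the colon libraries. The narrow spread depends on that scale. On total counts the ranges were 24.5 to 35.1 CPM in DSS mice and 16.2 to 18.7 CPM in controls, still without overlap. The log2 fold change of miR-450a-5p was 0.53 (SE 0.14), a fold change of 1.44, with an edgeR adjusted p of 0.0491. It thus passed the limit on p but not that on fold change. Under the labels' grouping it was at -0.19. The limit on p alone was passed by 11.8% of tested miRNAs. The adjusted p of miR-450a-5p was 0.0531 to 0.584 in the other analyses that kept the grouping, so the call on p alone rests on the analysis chosen.

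Both arms of miR-322 were higher in every DSS mouse than in any control. miR-322-3p was at 48.7, 39.7 and 38.4 CPM in DSS mice 1, 7 and 9 and at 32.5, 27.2 and 26.8 CPM in control mice 2, 4 and 8, a log2 fold change of 0.55 (SE 0.17, edgeR adjusted p = 0.0820). miR-322-5p, the arm with the miR-15/16 seed, was at 3.87, 4.74 and 3.599 CPM in DSS mice and at 3.00, 3.14 and 2.63 CPM in controls, a log2 fold change of 0.47 (SE 0.20, edgeR adjusted p = 0.161). Neither arm passed the test. With mice grouped by the labels, miR-322-5p was at -0.13 and miR-322-3p at 0.05. The deposited counts behind miR-322-5p were only 42 to 93 per library, against 427 to 993 for miR-322-3p.

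miR-503-5p, the neighbour of miR-322, was at 5.09, 3.27 and 5.30 CPM in colon of DSS mice 1, 7 and 9 and at 3.80, 1.39 and 2.82 CPM in control mice 2, 4 and 8. The groups overlapped, since DSS mouse 7 lay below control mouse 2. The log2 fold change of 0.77 (SE 0.38) was the largest of the tested members and did not pass the test (edgeR adjusted p = 0.211). With a mouse left out it ran from 0.45 to 1.09. The same range was 0.33 to 1.10 for miR-450b-5p and 0.32 to 1.06 for miR-542-3p, so the order of these members is not firm. miR-503-3p, the more abundant strand in colon, was at 15.9, 15.6 and 15.0 CPM in DSS mice and at 11.2, 14.0 and 11.97 CPM in controls, without overlap, with a log2 fold change of 0.32 (SE 0.16, edgeR adjusted p = 0.198). Both were below 0 under the labels' grouping, at -0.16 for miR-503-5p and -0.052 for miR-503-3p.

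miR-351-5p, the most abundant member, moved least in colon. It was at 83.8, 90.3 and 81.9 CPM in DSS mice and at 83.5, 70.7 and 75.5 CPM in controls, with overlap and a log2 fold change of 0.16 (SE 0.14, edgeR adjusted p = 0.460). Its other arm, miR-351-3p, was at 1.65, 1.80 and 1.70 CPM in DSS mice and at 1.60, 1.45 and 1.07 CPM in controls, without overlap, and had a log2 fold change of 0.33 (SE 0.25, edgeR adjusted p = 0.406). Among the 8 tested members, 4 were higher in DSS mice without overlap, namely miR-322-5p, miR-322-3p, miR-351-3p and miR-450a-5p, and 22.5% of all tested miRNAs were. Without miR-351-3p the count was 3 with factors over all 12 libraries (20.3% of all tested miRNAs) and on total counts (28%), since DSS mouse 1 then lay below control mouse 2. The log2 fold change of miR-351-5p was -0.059 under the labels' grouping and that of miR-351-3p 0.03.

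The remaining members at the distal end of the locus had low counts and wide spreads. miR-542-3p was at 4.30, 3.16 and 3.44 CPM in DSS mice and at 3.67, 1.33 and 2.07 CPM in controls, with a log2 fold change of 0.63 (SE 0.37, edgeR adjusted p = 0.291). miR-450b-5p was at 2.36, 1.69 and 1.47 CPM in DSS mice and at 1.87, 0.664 and 1.00 CPM in controls, with a log2 fold change of 0.64 (SE 0.41, edgeR adjusted p = 0.323). The groups overlapped in both.

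The 4 arms of the locus outside the member list were described in the same way. In colon 3 of them were tested, all with a log2 fold change above 0, namely miR-503-3p, miR-450b-3p (0.34) and miR-450a-1-3p (0.99), and none was SDE. miR-450a-1-3p and miR-450b-3p differ at 2 positions and share a seed, so reads could be divided between them in the counting, and both are uncertain to that extent. miR-450a-2-3p had 1 to 7 counts per colon library and was not tested.

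**Figure D3:**
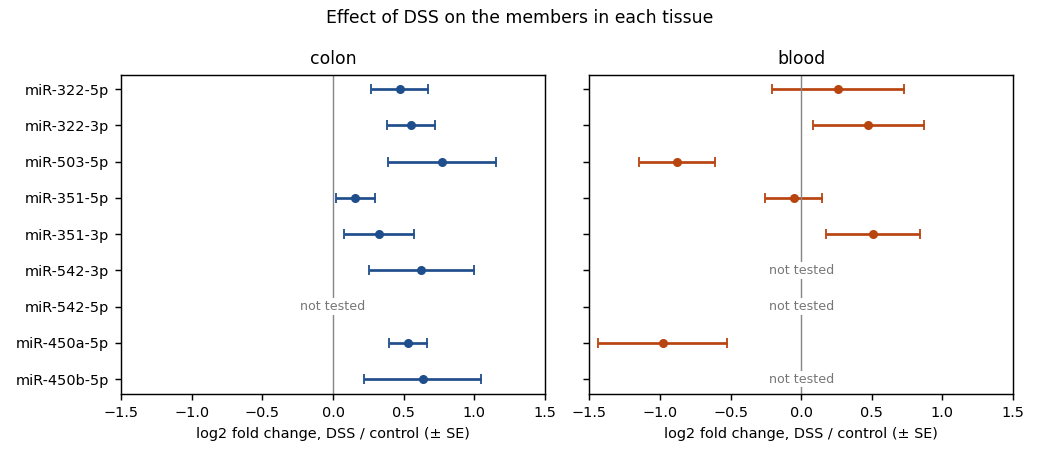
Log2 fold change of DSS against control mice for each member in colon and in blood, with bars for the SE, from edgeR fits of 3 against 3 libraries. All 8 tested members lie to the right of 0 in colon, from 0.16 to 0.77, and the 6 tested members lie on both sides of 0 in blood, from -0.98 to 0.51.

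The direction in colon did not rest on 1 mouse or on 1 scaling. All 8 tested members kept a log2 fold change above 0 when any of the 6 mice was left out, under RLE and upper-quartile factors and under scaling by total counts. Total-count scaling moved the median of all miRNAs in colon to 0.26, and the median of the 8 members was 0.75 there. Under the grouping of the sample labels the picture was gone, with 4 members above and 4 below 0, a smallest adjusted p of 0.991 (edgeR), and 0 SDE members. No miRNA at all was SDE in colon under that grouping (percent called 0), so the 0 among the members equals the background.

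Summed levels of cell type lists in the same colon libraries did not overlap for the epithelium and the endothelium and overlapped for leukocytes and for muscle and stroma. The 9 epithelial miRNAs summed to 55653 to 136222 CPM in DSS mice and to 163013 to 204162 CPM in controls, and 4 of the 9 were SDE and lower. The endothelial pair miR-126a-3p and miR-126a-5p summed to 6861 to 7340 CPM in DSS mice and to 5144 to 5558 CPM in controls, and neither was SDE. Of 6 leukocyte miRNAs, 3 were SDE and higher (summed level 406 to 1275 against 302 to 443 CPM), and of 11 smooth muscle and stromal miRNAs, 1 was SDE and higher (269004 to 361352 against 289561 to 368027 CPM). Over the alternatives that kept the grouping, the calls ranged from 0 to 8 in the epithelial list, from 0 to 5 in the leukocyte list, from 0 to 2 in the stromal list and from 0 to 1 in the endothelial pair. These counts stand beside the 10.1% of all tested miRNAs that were SDE in colon, and the 1 of 11 in the stromal list is near that share. The stromal sum was mostly miR-143-3p, at 314441 ± 52131 CPM in DSS mice and 318553 ± 38393 CPM in controls (SD, n = 3). In the stromal list 6 of 11 had a log2 fold change above 0, namely the miR-199 and miR-214 arms. These ran from 0.28 (miR-214-3p) to 0.62 (miR-199a-5p), and the other entries from -1.52 (miR-145a-5p) to -0.02 (miR-143-3p). No miRNA of these lists was at 0 in every colon library, and their part in the levels of the cluster was not tested.

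The shares of the members in the cluster's own counts need no scaling, but they sum to 100%, so a share can be lower in DSS mice although the member's own level is not. miR-351-5p made up 47.5% to 52.4% of the members' counts in colon of DSS mice and 56.0% to 57.9% in controls, without overlap. The share of miR-322-3p was 23.0% to 27.6% in DSS mice and 20.5% to 21.8% in controls, also without overlap. The share of miR-450a-5p was 15.0% to 16.7% in DSS mice and 12.8% to 15.0% in controls. These shares were looked at after the counts were seen and are given as a description, without a test.

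The second comparison asked the same of blood. Here 6 of the 9 members passed the filter on low counts, 3 with a log2 fold change above 0 (45% of tested miRNAs were above 0) and 3 below, and none was SDE. No miRNA at all was SDE by edgeR in blood (percent called 0 of 484), while 56 of 484 (11.6%) had an unadjusted p under 0.05, DESeq2 called 10 and edgeR without the filter called 25. The members' median log2 fold change was 0.10 and that of all tested miRNAs was -0.05. miR-542-3p, miR-542-5p and miR-450b-5p were not tested in blood, with 0 to 27 counts per library.

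miR-503-5p was lower in blood of every DSS mouse than in any control on the scale of the blood libraries. It was at 13.6, 10.2 and 16.8 CPM in DSS mice 1, 7 and 9 and at 29.9, 23.6 and 21.3 CPM in control mice 2, 4 and 8. The log2 fold change was -0.88 (SE 0.27), with an unadjusted p of 0.0103 and an adjusted p of 0.277 in edgeR, which does not pass the test. The adjusted p ranged from 0.0972 (DESeq2) to 0.726 over the alternatives that kept the grouping. Under the labels' grouping the log2 fold change was 0.47 (edgeR adjusted p = 0.9503), above 0. Of all tested miRNAs in blood, 9.92% were lower in DSS mice without overlap. The groups also stood apart with factors over all 12 libraries (15.7 to 22.6 against 24.6 to 32.7 CPM) but overlapped on total counts alone (9.59 to 18.1 against 17.3 to 26.5 CPM), a scale looked at after the data were seen.

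miR-503-3p, the other arm of the hairpin, was at 1.18, 3.52 and 3.14 CPM in DSS mice and at 5.62, 5.64 and 3.70 CPM in controls. These groups did not overlap, whereas with factors over all 12 libraries they did, since DSS mouse 7 (5.40 CPM) lay above control mouse 8 (5.23 CPM). Its log2 fold change was -0.94 (SE 0.41, edgeR adjusted p = 0.420). miR-450a-5p was at 1.18, 0.871 and 0.785 CPM in DSS mice and at 2.97, 0.748 and 1.90 CPM in controls, a log2 fold change of -0.98 (SE 0.46, edgeR adjusted p = 0.420). The groups of miR-450a-5p overlapped because control mouse 4 was the lowest of the 6. Under the labels' grouping both were above 0, at 0.25 for miR-503-3p and 0.45 for miR-450a-5p.

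Both arms of miR-322 had their highest blood level in DSS mouse 1. miR-322-3p was at 10.4, 4.26 and 4.52 CPM in DSS mice and at 3.95, 5.93 and 3.97 CPM in controls, with a log2 fold change of 0.48 (SE 0.39, edgeR adjusted p = 0.697). miR-322-5p was at 1.46, 0.451 and 0.785 CPM in DSS mice and at 0.854, 0.518 and 0.882 CPM in controls, with a log2 fold change of 0.26 (SE 0.47, edgeR adjusted p = 0.924). Without mouse 1 the log2 fold changes were -0.02 and -0.28, so the sign above 0 came from that library.

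miR-351-5p overlapped between the groups in blood, at 84.6, 96.7 and 98.7 CPM in DSS mice and at 98.1, 106 and 86.6 CPM in controls (log2 fold change -0.05, SE 0.20, edgeR adjusted p = 0.940). Its sign changed with the scaling and was above 0 under upper-quartile factors and total counts. miR-351-3p was at 0.856, 0.903 and 1.11 CPM in DSS mice and at 0.494, 0.633 and 0.848 CPM in controls, higher without overlap, with a log2 fold change of 0.51 (SE 0.33, edgeR adjusted p = 0.625). A higher level without overlap was found for 7.44% of tested miRNAs in blood, and on total counts the groups of miR-351-3p overlapped (0.850 to 1.14 against 0.439 to 1.02 CPM). Under the labels' grouping miR-351-3p was at -0.49 and miR-351-5p at 0.032.

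Of the cell type lists in blood, the miR-126a pair listed for endothelium was lower in DSS mice without overlap. This held on the scale of the blood libraries, with factors over all 12 libraries and on total counts. Which cells carry the pair in blood was not tested. The 9 epithelial miRNAs summed to 950.4 to 1123 CPM in DSS mice and to 1129 to 1324 CPM in controls, without overlap on the scale of the blood libraries, but overlapped with factors over all 12 libraries (1272 to 1603 against 1178 to 1762 CPM) and on total counts. miR-126a-3p and miR-126a-5p summed to 13.4 to 16.3 CPM in DSS mice and to 30.97 to 57.3 CPM in controls, and the 6 leukocyte miRNAs summed to 4689 to 5747 and to 3248 to 5304 CPM, with overlap. The 5 red cell miRNAs summed to 579912 to 864794 CPM in DSS mice and to 636782 to 1142910 CPM in controls, also with overlap. Through the TMM factors a scaled sum can exceed 1e6. On total counts the red cell sums were 769561 to 813993 CPM in DSS mice and 762874 to 838958 CPM in controls. No miRNA of these lists was SDE in blood by edgeR. DESeq2 called 3 of them, miR-126a-3p (log2 fold change -1.41, DESeq2 adjusted p = 0.000866) and miR-215-5p (-0.80, DESeq2 adjusted p = 0.0472) lower and miR-223-3p (1.38, DESeq2 adjusted p = 0.00329) higher. Without the filter edgeR called miR-126a-3p, miR-223-3p and the stromal miR-214-3p. The part of these lists in the level of miR-503 was not tested. In shares of the cluster's own counts, miR-503-5p made up 8.97% to 13.6% in blood of DSS mice and 17.2% to 21.9% in controls, again without overlap.

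Whether DSS acted differently in the tissues was tested as an interaction over all 12 libraries. None of the 8 members tested was called by edgeR, nor was any other of the 680 miRNAs tested (percent called 0), while 94 of them (13.8%) had an unadjusted p under 0.05. miR-503-5p, higher in colon and lower in blood of DSS mice, had a difference in log2 fold change of -1.33 (SE 0.50, unadjusted p = 0.0178, adjusted p = 0.300 in edgeR). For miR-450a-5p the difference was -1.16 (SE 0.59, edgeR adjusted p = 0.401), and for miR-503-3p it was -0.94 (SE 0.47, edgeR adjusted p = 0.385). Under the labels' grouping the signs turned, to 0.45, 0.47 and 0.016.

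The DESeq2 Wald test, run on the same counts, did call these members. It gave miR-503-5p a difference of -1.75 with an adjusted p of 0.00679 and miR-450a-5p a difference of -1.57 with an adjusted p of 0.0243. DESeq2 called 37 of the 415 miRNAs to which it gave an adjusted p (8.92%). The difference between tissues for these members thus depends on the test, and the remaining members were called by neither.

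The tissues themselves were compared next, over all 6 mice. Among the 8 members tested, 5 were SDE and lower in blood than in colon and 2 were SDE and higher, and 88.7% of the 680 miRNAs tested were SDE (37.6% higher and 51% lower). With this background the number of calls says little about the cluster, whereas the size and order of the differences separated its members. The median log2 fold change over all tested miRNAs was -0.86, and that of the 8 members was -1.58. miR-542-3p and miR-450b-5p, however, passed the filter on low counts in colon alone and not in blood, so that their lower level in blood follows from how they entered the test and is given as a description. Of the 6 members past the filter in each tissue, a count made after the data were seen, 2 were SDE and higher in blood, 3 were SDE and lower and 1 was not called, with a median log2 fold change of -0.72. Of all 357 such miRNAs 82.6% were SDE (38.4% higher and 44.3% lower), with a median of -0.14.

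miR-503-5p was higher in blood, at 15.7 to 32.7 CPM (median 23.6, n = 6) against 1.09 to 4.01 CPM (median 2.78, n = 6) in colon on the scale of all 12 libraries. Its log2 fold change was 3.13 (SE 0.27, edgeR adjusted p = 2.1e-08). miR-351-5p was higher as well, at 107 to 149 CPM (median 117) in blood and 55.4 to 70.3 CPM (median 62.5) in colon, with a log2 fold change of 0.98 (SE 0.17, edgeR adjusted p = 6.6e-05). The blood and colon ranges did not overlap for either of them, and 32.2% of tested miRNAs were higher in blood without overlap.

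miR-450a-5p was lower in blood, at 0.781 to 3.25 CPM (median 1.65) against 14.3 to 21.4 CPM (median 17.6) in colon. Its log2 fold change of -3.29 (SE 0.31, edgeR adjusted p = 7.6e-08) was the largest decrease among the members tested. miR-322-3p was at 4.33 to 17.2 CPM (median 5.90) in blood and at 20.7 to 36.6 CPM (median 27.5) in colon, with a log2 fold change of -1.90 (SE 0.28, edgeR adjusted p = 1.1e-05). These ranges did not overlap either, and 44.9% of tested miRNAs were lower in blood without overlap.

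miR-322-5p (log2 fold change -1.26, SE 0.31) was also SDE and lower in blood. The fitted log2 fold changes of the members past the filter through colon alone were -2.32 (SE 0.40) for miR-542-3p and -2.14 (SE 0.48) for miR-450b-5p. The ranges of all 3 over the libraries overlapped, and in blood their counts were 0 to 58 per library. miR-351-3p did not pass the test (-0.18, SE 0.25, edgeR adjusted p = 0.485), but it was SDE in either direction elsewhere. It was SDE and lower under total counts (-0.92, edgeR adjusted p = 0.00604) and without mouse 8 (-0.62, edgeR adjusted p = 0.0283). It was SDE and higher under upper-quartile factors (1.01, edgeR adjusted p = 0.000701) and without miR-486 (1.25, edgeR adjusted p = 0.000298). Among the other arms, miR-503-3p was SDE and lower (-1.23, SE 0.24), and miR-450b-3p (0.47, SE 0.33) and miR-450a-1-3p (-1.03, SE 0.51) were not SDE. miR-450b-3p was SDE and higher under upper-quartile factors (1.63), with at least 10 counts in every library (0.95) and without miR-486 (1.92). miR-450a-1-3p, which also passed the filter in colon and not in blood, was at -1.74 under total counts, at -1.26 without the filter and at -1.38 without mouse 1, and was called in these 3 analyses. Its sign turned under upper-quartile factors (0.13) and without miR-486 (0.37), where it was not SDE.

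Since miR-486 took most of the blood counts, the scale on which the tissues are compared had to be chosen, and several were tried. The median over all tested miRNAs was -1.59 under total counts, 0.33 under upper-quartile factors and 1.63 when miR-486a-5p and miR-486b-5p were left out and the remaining counts were used, an analysis added after the data were seen. miR-503-5p was SDE and higher in blood under all 5 scalings, with log2 fold changes of 2.40 to 4.58, and miR-450a-5p was SDE and lower under all 5, with -4.02 to -1.88. miR-542-3p, which passed the filter through colon alone, was at -3.04 to -0.89. Relative to the median of all miRNAs, miR-503-5p stood 2.95 to 4.02 above it and miR-450a-5p 3.51 to 2.43 below it.

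The direction of other members was less firm. miR-351-5p was above 0 under all 5 scalings but not SDE under total counts (0.23), and miR-322-3p was below 0 under all 5 but not SDE without miR-486 (-0.45). miR-450b-5p, past the filter through colon alone, was below 0 under all 5 but not SDE under upper-quartile factors (-0.98) or without miR-486 (-0.71). The sign of miR-322-5p changed without miR-486 (0.17), and miR-322-5p was not SDE under upper-quartile factors either (-0.09, edgeR adjusted p = 0.760). The sign of miR-351-3p changed under upper-quartile factors (1.01) and without miR-486 (1.25), and that of miR-503-3p under the same pair of scalings (0.01 and 0.23).

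**Figure D4:**
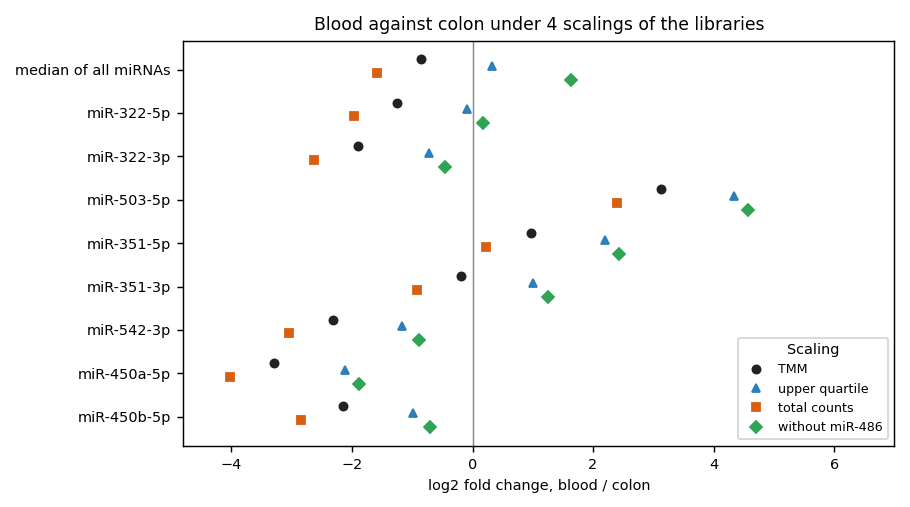
Log2 fold change of blood against colon for the 8 tested members and for the median of all tested miRNAs, under 4 ways of scaling the 12 libraries (symbols). miR-503-5p lies right of 0 under each of the 4, from 2.40 to 4.58, and miR-450a-5p left of 0, from -4.02 to -1.88, while miR-322-5p and miR-351-3p cross 0.

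Ratios within a library need no scaling and gave the same contrast. The count of miR-503-5p was 0.0742 to 0.199 times that of miR-450a-5p in the 6 colon libraries and 10.1 to 31.5 times in the 6 blood libraries. miR-450a-5p made up 12.8% to 16.7% of the members' counts in colon and 0.544% to 2.17% in blood, and miR-503-5p made up 1.11% to 3.25% in colon and 8.97% to 21.9% in blood. These ratios were chosen after the counts were seen and carry no test.

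The use of the arms was compared for the hairpins whose 2 arms are both members, as the log2 ratio of the 3p to the 5p count with 0.5 added to each. For Mir351 the 3p arm held 1.39% to 2.04% of the hairpin's counts in colon and 0.501% to 1.11% in blood, without overlap. The ratio was 1.19 lower in blood on the log2 scale (exact permutation test, two-sided, 6 against 6 libraries, p = 0.00216, the smallest this design allows; 0.00649 after Benjamini-Hochberg adjustment over 3 hairpins). That permutation test treats colon and blood of a mouse as independent libraries, although they are paired. Within mice the ratio was lower in blood in 6 of 6 (exact sign-flip test within mice, p = 0.0312, the smallest that 6 pairs allow). The sign-flip p was not adjusted over the hairpins, so the adjusted value holds for the unpaired test only.

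For Mir542 the 3p arm held 88.0% to 100% of the counts in colon and 66.7% to 100% in blood, on 4 to 34 counts of both arms together in a blood library. The 5p arm had no count in 3 libraries, colon of mouse 2 and blood of mice 2 and 4, where the ratio is set by the added 0.5 and the depth. The ratio between tissues and its test are therefore not read for this hairpin. The share of the 3p arm was lower in blood in 4 of 6 mice, equal in 1 and higher in 1. For Mir322 the 3p arm held 89.3% to 92.6% in colon and 81.8% to 92.0% in blood. The ratio was 0.61 lower in blood (exact permutation test, p = 0.0346, adjusted 0.0346) and lower in 4 of 6 mice, and the call was lost within mice (exact sign-flip test, p = 0.125) and when mouse 1, 2, 8 or 9 was left out (exact permutation p of 0.103 to 0.119). The tissues overlapped for Mir322, and the difference was close to the SD of the ratio in blood (0.53).

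Mir503 stood out among the hairpins, because its prevailing arm was not the same in the tissues. The 3p arm held 73.9% to 91.0% of its counts in colon and 7.99% to 25.6% in blood. In colon of control mouse 2, for example, the 3p arm had 168 of 225 counts (74.7%, exact 95% interval 68.5% to 80.2%), and in blood of the same mouse it had 125 of 790 (15.8%, exact 95% interval 13.4% to 18.6%). Mir450b also differed, with a 3p share of 55.4% to 73.8% in colon and 87.6% to 100% in blood, on 27 to 140 counts of both arms in a blood library. These 2 hairpins were added to the arm comparison after their counts were seen, so their shares are a description, with no test.

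**Figure D5:**
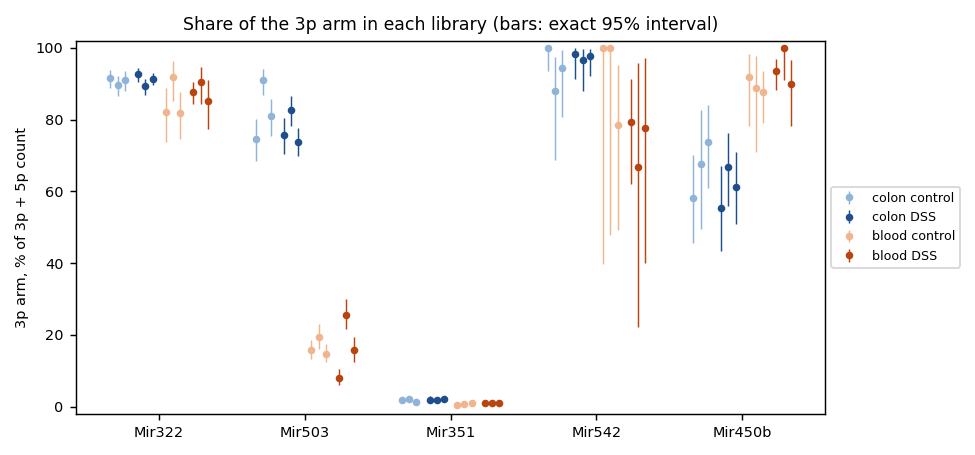
Share of the 3p arm in the counts of both arms of 5 hairpins, in percent, with a point for each library and bars for its exact 95% binomial interval, which covers counting error only. The Mir503 points lie at 73.9% to 91.0% in colon and at 7.99% to 25.6% in blood, while Mir351 lies at 0.501% to 2.04% and Mir322 at 81.8% to 92.6% in all libraries.

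The arm ratios of DSS and control mice overlapped for every hairpin in both tissues. Of the 6 comparisons (3 hairpins in 2 tissues), that of Mir542 in blood gave -1.35 on the log2 scale (exact permutation test of 3 against 3, p = 0.2, adjusted 0.6), a value that rests on 2 control libraries without a 5p count. The others ranged from 0.09 to 0.59 with exact permutation p of 0.2 to 0.8. The smallest p this design allows is 0.1, so a difference could not have passed. Under the labels' grouping the difference in blood was 1.45 for Mir542 and -0.56 for Mir351, both with the sign turned. The intervals in the plot of arm shares show how few counts stand behind Mir542 in blood.

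The seed relatives set the scale for what miR-322-5p and miR-351-5p add to their families. In colon miR-16-5p was at 200.4 ± 12.1 CPM in DSS mice and 223 ± 23.6 CPM in controls and miR-195a-5p at 105 ± 11.99 and 92.5 ± 6.21 CPM (SD, n = 3), against 4.07 ± 0.594 and 2.92 ± 0.262 CPM for miR-322-5p. miR-125a-5p was at 6889 ± 362 and 6787 ± 1803 CPM and miR-125b-5p at 7102 ± 193 and 5850 ± 954 CPM, against 85.3 ± 4.41 and 76.5 ± 6.47 CPM for miR-351-5p. In colon the cluster's strands were thus minor members of both families by count.

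In blood the relation was another one for the miR-125 seed. miR-351-5p was at 93.3 ± 7.62 CPM in DSS mice and 96.8 ± 9.59 CPM in controls, and miR-125b-5p at 88.0 ± 40.4 and 94.3 ± 3.32 CPM, so these did not differ beyond their spread. miR-125a-5p was at 167 ± 78.7 and 165 ± 10.001 CPM. Between the tissues, miR-125a-5p and miR-125b-5p were SDE and lower in blood (log2 fold change -4.61 and -5.39), whereas miR-351-5p was above 0 under every scaling tried.

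The list of relatives of miR-15/16 has 7 entries, 6 with the exact seed of miR-322-5p and miR-497b, which does not carry it. Of the 6, 5 were tested in each tissue, and by edgeR none was SDE between DSS and control mice. Their median log2 fold change was -0.04 in colon, beside 0.47 for miR-322-5p, and -0.61 in blood, beside 0.26. The summed level of the list was 492 to 633 CPM in blood of DSS mice and 755 to 1171 CPM in controls, with overlap on total counts (505 to 840 against 749 to 1039 CPM), led by miR-16-5p (316 ± 47.8 against 715 ± 255 CPM, log2 fold change -1.18, edgeR adjusted p = 0.236). miR-16-5p was SDE and lower in blood of DSS mice by DESeq2 (-1.13, DESeq2 adjusted p = 0.0337) and by edgeR without the filter (-1.15, edgeR adjusted p = 0.00485). Between tissues 3 of the 5 with the exact seed, miR-15a-5p, miR-15b-5p and miR-16-5p, were SDE and higher in blood and 2, miR-195a-5p (-3.62) and miR-497a-5p (-3.84), were SDE and lower, beside 88.7% SDE among all tested miRNAs (37.6% higher and 51% lower), so the number of calls is near the background.

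miRNAs outside the locus were ranked by how closely they followed miR-322-5p over the 12 libraries, as the root mean square difference of the centred log2(CPM + 1) values. Among 296 miRNAs with a mean of at least 10 CPM in either tissue, the closest were miR-532-5p (0.22), miR-29a-3p (0.25), miR-335-3p (0.29), miR-1843a-5p (0.31) and miR-345-3p (0.35). Within the cluster, miR-450b-5p (0.28) and miR-542-3p (0.31) lay as near, and miR-450a-5p (1.03) and miR-503-5p (1.85) lay farthest away. The added 1 CPM compresses the differences of miRNAs at low levels, and the libraries of a tissue share most of what this measure sees.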

How the data were processed

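Small RNA-Seq counts of 12 libraries were analysed. As stated in the study's methods, the authors trimmed reads with Flexbar, collapsed them with fastx-toolkit and counted them on mature mouse miRNAs of miRBase with the quantifier of miRDeep2, and deposited raw counts per miRNA and library (build GRCm38 per the labels). The deposited normalized signal is the count divided by a DESeq2 size factor, separately for each tissue, and served only for 1 alternative with limma (3.58.1) as log2(value + 1). No molecular identifiers are named, so intervals cover counting error only.

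Counts were fitted over all miRNAs in R (4.3.3) with edgeR (4.0.16): filterByExpr, TMM factors, glmQLFit and glmQLFTest, with Benjamini-Hochberg adjustment. The SE was derived from the fold change and the F statistic. DSS effects were fitted in each tissue alone, tissue and interaction over 12 libraries. DESeq2 (1.42.0), other scalings and filters, each mouse left out, and the labels' grouping were alternatives. Scripts were tested on simulated data. Exact permutation tests used scipy. Colon and blood of a mouse share its number and are paired by animal; the correlation of their deviations from the group means was -0.27 to 0.07 over 680 miRNAs. Replicates are separate mice.

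All 9 members are named by rule. The 5 miRNAs closest to miR-322-5p follow a ranking; other arms and relatives are given as counts with values for the abundant. Ratios of miR-503-5p to miR-450a-5p, shares within the cluster and the arms of Mir503 and Mir450b were chosen after their values were seen. The members and lists were chosen with earlier results of these data known. The total RNA libraries were not analysed here.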

Additional observations from a re-analysis of the deposited data

How the results depend on the processing

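The counts of SDE members were 0 in colon and in blood under every alternative run. Between tissues they were 7 to 8 when a mouse was left out, 6 under upper-quartile factors and 5 without miR-486. The count was 4 when at least 10 counts were required in every library, where 5 members were left to test. The counts with a mouse left out include miR-542-3p and miR-450b-5p, which passed the filter through colon alone. For the interaction the count was 0 in edgeR under every alternative and 2 in DESeq2. With the mouse as a replicate block, 7 members stayed SDE between tissues and 0 in the interaction; the paired arm ratios of Mir322 (-0.61) and Mir542 (-2.59) were not significant within mice, and the ratio of Mir542 rests in 3 libraries on the added 0.5.

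Under the grouping of the sample labels, signs turned in colon for miR-322-5p (-0.13), miR-503-5p (-0.16), miR-351-5p (-0.059), miR-450a-5p (-0.19) and miR-503-3p (-0.052), and in blood for miR-503-5p (0.47), miR-351-5p (0.032), miR-351-3p (-0.49), miR-450a-5p (0.45) and miR-503-3p (0.25). They also turned in the interaction for miR-503-5p (0.45), miR-450a-5p (0.47) and miR-503-3p (0.016), and in the arm ratios of blood for Mir351 (-0.56) and Mir542 (1.45).

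In blood, miR-351-5p was above 0 under upper-quartile factors (0.062), total counts (0.18), 1 fit of 12 libraries (0.24) and limma (0.00033). With mice left out in turn it ran from -0.072 to 0.078, miR-322-5p from -0.28 to 0.65 and miR-322-3p from -0.016 to 0.77, and without mouse 1 both arms of miR-322 turned. Arm ratios ran from -0.81 to -0.49 for Mir322 between tissues, and between DSS and control mice in colon from -0.050 to 0.24 for Mir322 and from -0.27 to 1.78 for Mir542.

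Between tissues, miR-351-3p was above 0 under upper-quartile factors (1.01), with at least 10 counts (0.27) and without miR-486 (1.25). miR-503-3p (0.014 and 0.23 under the first and last of these) and miR-322-5p (0.17 without miR-486) turned as well. So did miR-450a-1-3p, at 0.13 under upper-quartile factors and 0.37 without miR-486, and miR-450b-3p was at -0.23 under total counts. The cause was not tested.

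Low counts limit miR-542-5p in both tissues and miR-542-3p and miR-450b-5p in blood, and 3 mice a group limit every DSS comparison. The number of SDE miRNAs over the whole table in colon, 55, varied with the scaling (47 under total counts, 16 under RLE factors, 8 under upper-quartile factors). It also varied with the test and filter (74 by DESeq2, 76 without the filter), the fit (0 with all 12 libraries) and the mice. It was 44 without mouse 1, 37 without mouse 9 and 0 without mouse 2, 4, 7 or 8.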
